A study of Mus musculus with 15 samples.

Results

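The genes described here encode the MHC class II antigen presentation machinery of the mouse: the classical chains H2-Aa, H2-Ab1 and H2-Eb1, the invariant chain Cd74, the peptide-loading chains H2-DMa, H2-DMb1 and H2-DMb2, the DO chains H2-Oa and H2-Ob, and the transactivator Ciita. Members were taken by name from array entries annotated with exactly 1 gene symbol, keeping the entry of highest mean where a gene had several. Of the 10 genes listed, 9 could be taken in this way, among 22180 genes in all. The entry that names Cd74 carries a further symbol, so Cd74 was not analysed here. Expression was measured in whole kidneys of 15 mice, all of which carried PRCC-TFE3, a knock-in of a renal carcinoma fusion gene placed behind a loxP-flanked stop cassette at the Rosa26 locus. Mice positive for KSP-Cre (Cre+) were compared with knock-in mice without it (Cre-), at the age of 4 months (4 Cre+ and 4 Cre-) and of 7 months (4 Cre+ and 3 Cre-). KSP-Cre uses the regulatory sequence of kidney-specific cadherin (Cdh16), which is active in tubule epithelium, so recombination is expected in part of the cells of each kidney. Every Cre+ mouse also carried the fusion allele, so what the recombinase does on its own and what the fusion does cannot be told apart. RNA of the whole organ was hybridised, so more cells of a type and more RNA per cell cannot be told apart either.

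MHC class II molecules are heterodimers of an alpha and a beta chain that display peptides from endocytosed proteins to CD4+ T cells. They are made constitutively by dendritic cells, B cells and many macrophages, and other cells, tubule epithelium among them, can make them after exposure to interferon gamma. New dimers bind the invariant chain Cd74, which endosomal proteases trim to a short fragment in the groove. The heterodimer H2-DM then exchanges that fragment for peptide, and H2-DO, which is made mainly by B cells, restrains H2-DM. Ciita is recruited to an enhanceosome of RFX, CREB and NF-Y proteins on the X and Y boxes of class II promoters, and it is required for transcription of most of these genes.

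The deposited values are log2 intensities after robust multi-array averaging, and arrays of one group correlated at 0.98 to 0.99 over all genes. Gpnmb, a known target gene of TFE3 family factors, lay at 4.05 to 4.69 in the 7 Cre- arrays, at 10.2 to 11.1 in Cre+ kidneys of 4 months and at 12.01 to 12.37 in those of 7 months, so no array went against its label. The Tfe3 entry, at 6.31 to 6.88 in all 15 arrays, is not known to cover the fusion and checks nothing. Kidney identity was present in every group: the mean over 15 measured kidney markers was 8.80 or higher in each array. The labels give no sex. A mean over 3 Y-linked genes split the arrays into 8 at 6.92 or higher and 7 at 2.98 or lower, with 2 arrays of the first kind in every group. The low values show roughly where the floor of the array lies, and Xist reached 3.93 among the 8 arrays of the first kind. Cre+ 4M replicate 1 stood apart from its group: it was the lowest of its 4 arrays in 8 of 9 class II members, 12 of 19 macrophage markers and 12 of 15 genes of the interferon gamma axis. Its median over all entries was the lowest of the group as well (4.44 beside 4.50 to 4.55). Its Gpnmb value was also the lowest (10.21 beside 10.82 to 11.07). The share of all genes in which this array was the lowest was not counted.

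The promoter sequences of the class II genes on chromosome 17 are shown because the members share regulatory letters there, although their responses differed in size as described below. RefSeq windows (GRCm38.p6) of 300 bases, from 250 before to 50 after each start site, were found for 7 members (8 windows, since H2-DMa has 2 starts). The Y box core TGATTGG, searched on both strands, occurred in 6 of these 7 members, in all but H2-DMa, and in 7.82% of all 32851 windows. Its letters contain the reverse complement of CCAAT, so each match is also a match to CCAAT, which occurred in 37.4% of windows. The X box core TAGNAAC, also on both strands, occurred in 3 members, H2-Eb1, H2-DMb1 and H2-Ob, and in 11.4% of windows. It overlaps no Y box core in the sequences printed here. The letters TGACGTCA, a cyclic AMP response element, occurred in H2-Aa at position -74 from the start and in 1.79% of windows. The 150 bases before the start are printed 5′ to 3′ for the 6 members with a Y box, on the strand of the gene, with matches to the Y box core and the X box core in capitals:
H2-Aa (chr17:34287824-34287973, minus strand): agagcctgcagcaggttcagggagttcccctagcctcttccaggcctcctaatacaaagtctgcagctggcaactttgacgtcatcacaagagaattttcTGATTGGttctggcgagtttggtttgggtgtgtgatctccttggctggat
H2-Eb1 (chr17:34305717-34305866, plus strand): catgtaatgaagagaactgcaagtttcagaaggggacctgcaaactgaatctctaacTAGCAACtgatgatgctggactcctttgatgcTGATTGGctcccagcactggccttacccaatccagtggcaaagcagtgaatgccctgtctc
H2-DMb2 (chr17:34145099-34145248, plus strand): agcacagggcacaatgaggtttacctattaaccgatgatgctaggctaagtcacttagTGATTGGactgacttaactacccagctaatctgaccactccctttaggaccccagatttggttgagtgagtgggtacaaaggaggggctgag
H2-DMb1 (chr17:34153041-34153190, plus strand): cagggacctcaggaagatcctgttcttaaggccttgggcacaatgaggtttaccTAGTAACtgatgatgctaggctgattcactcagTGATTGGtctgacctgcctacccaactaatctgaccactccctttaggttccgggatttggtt
H2-Oa (chr17:34092229-34092378, plus strand): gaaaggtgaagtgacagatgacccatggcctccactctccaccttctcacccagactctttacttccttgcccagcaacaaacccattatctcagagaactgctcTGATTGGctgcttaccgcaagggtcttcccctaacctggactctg
H2-Ob (chr17:34238755-34238904, plus strand): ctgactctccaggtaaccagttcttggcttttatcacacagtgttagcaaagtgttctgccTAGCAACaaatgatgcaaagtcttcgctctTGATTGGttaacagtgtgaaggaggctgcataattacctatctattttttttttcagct
The first base of the Y box core lay between position -45 (H2-Oa) and position -92 (H2-DMb2), counted from the start site. The windows of H2-DMb1 and H2-DMb2 were identical at 208 of 247 aligned bases (84.2%), including the Y box core. The exact letters of the X box core matched in H2-DMb1 alone of the pair, where H2-DMb2 reads tattaac in place of TAGTAAC. Only exact letters were searched, so a member without a match may still hold a variant of the X box. The letters of both cores were chosen after the sequences had been read, and a match is a description of letters, not of a bound site.

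At 4 months, 5 of the 9 measured class II genes rose in Cre+ kidneys and none fell: H2-Aa, H2-Ab1, H2-Eb1, H2-DMa and H2-DMb2 (limma, Benjamini-Hochberg adjusted p under 0.05 over all genes). Over all genes, 2.73% rose by the same test. At 7 months, 7 of 9 rose, the same 5 with Ciita and H2-DMb1, and none fell, where 11.7% of all genes rose. The median log2 change of the 9 members was 0.51 at 4 months and 1.16 at 7 months, beside 0.05 and -0.04 over all genes. In 3 members at 4 months and 8 at 7 months every Cre+ array was above every Cre- array of that age, as in 6.31% and 14% of all genes. After centring each array on its median the members called were still 5 at 4 months and were 6 at 7 months. Over all genes, 497 and 2337 were then called higher, beside 606 and 2597 as deposited. The share of higher among all called genes moved under that scaling from 77.3% to 49.3% at 4 months and from 52.0% to 39.3% at 7 months, and the median change of all genes at 7 months became -0.12.

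**Figure D1:**
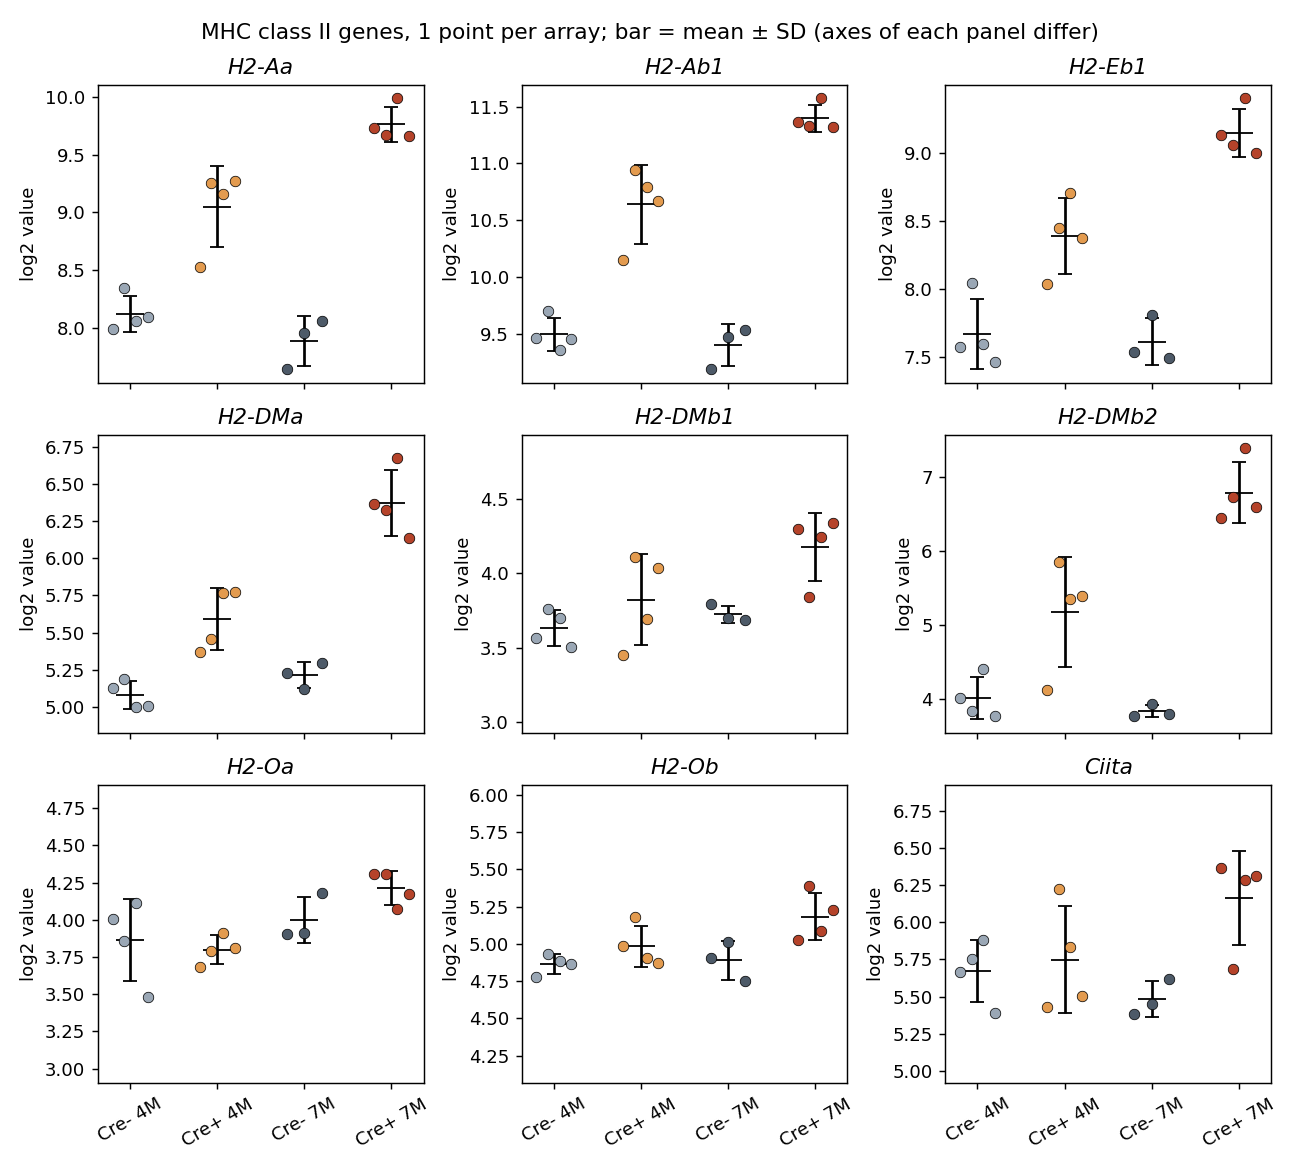
Log2 value of each of the 9 measured class II genes (vertical axis, scaled per panel) in the 4 groups; each point is 1 array, the long horizontal line is the group mean and the bar is ± SD. The 3 classical chains, H2-DMa and H2-DMb2 step up from Cre- to Cre+ 4M to Cre+ 7M, while H2-Oa and H2-Ob stay within a range of about 1 log2 unit.

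H2-Ab1, the beta chain of the I-A heterodimer, read 9.47, 9.71, 9.36 and 9.46 in Cre- and 10.15, 10.95, 10.79 and 10.67 in Cre+ kidneys of 4 months. At 7 months it read 9.19, 9.47 and 9.54 in Cre- and 11.36, 11.33, 11.57 and 11.32 in Cre+ kidneys. The Cre+ arrays were above all Cre- arrays at both ages, and the 7-month Cre+ arrays were above those of 4 months. H2-Ab1 rose 2.21-fold at 4 months (log2 change 1.14, SE 0.15, limma adjusted p = 0.00012) and 3.99-fold at 7 months (2.00, SE 0.16, adjusted p = 1.6e-07).

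H2-Aa, the alpha chain that pairs with it, read 7.99, 8.34, 8.06 and 8.09 in Cre- and 8.52, 9.25, 9.16 and 9.27 in Cre+ kidneys of 4 months. The 7-month values were 7.64, 7.95 and 8.06 in Cre- and 9.73, 9.67, 9.99 and 9.67 in Cre+ kidneys. The groups did not overlap at either age, and the Cre+ 4M array closest to the Cre- range was replicate 1. H2-Aa rose 1.91-fold at 4 months (log2 change 0.93, SE 0.15, limma adjusted p = 0.0017) and 3.68-fold at 7 months (1.88, SE 0.17, adjusted p = 5.2e-07). Without Cre+ 4M replicate 1 the 4-month log2 change was 1.11 for H2-Aa and 1.31 for H2-Ab1.

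H2-Eb1, the beta chain of I-E, read 7.58, 8.05, 7.59 and 7.46 in Cre- and 8.03, 8.45, 8.71 and 8.38 in Cre+ kidneys of 4 months. At 7 months it read 7.54, 7.81 and 7.50 in Cre- and 9.13, 9.06, 9.40 and 8.999 in Cre+ kidneys. The 4-month groups touched, since Cre+ 4M replicate 1 lay just under Cre- 4M replicate 2, and the 7-month groups were apart. H2-Eb1 rose 1.65-fold at 4 months (log2 change 0.72, SE 0.15, limma adjusted p = 0.011) and 2.89-fold at 7 months (1.53, SE 0.16, adjusted p = 3.5e-06). H2-Ea, the alpha chain of I-E and not one of the 9 genes, lay between 2.79 and 3.41 in all arrays, near the floor, with adjusted p of 0.91 and 0.70. H2-Eb2, a related beta chain, lay at 2.56 to 3.17 in the other 3 groups and at 3.45 to 4.33 in Cre+ kidneys of 7 months, a log2 rise of 1.22 (SE 0.18, limma adjusted p = 1e-04). Since its lower values lie at the floor, that change may be understated.

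Of the peptide-loading chains, H2-DMb2 had the largest fitted change of any member. It read 4.02, 3.84, 4.40 and 3.77 in Cre- and 4.12, 5.85, 5.35 and 5.40 in Cre+ kidneys of 4 months. At 7 months it read 3.77, 3.92 and 3.79 in Cre- and 6.45, 6.73, 7.39 and 6.60 in Cre+ kidneys. Cre+ 4M replicate 1 lay inside the Cre- range, the other three arrays of its group lay above it, and the 7-month groups were more than 2 log2 units apart. H2-DMb2 rose 2.26-fold at 4 months (log2 change 1.17, SE 0.28, limma adjusted p = 0.025) and 7.81-fold at 7 months (2.97, SE 0.30, adjusted p = 2.2e-06). Without Cre+ 4M replicate 1 the 4-month change was 1.53 (limma adjusted p = 0.00025). The call was lost when Cre+ 4M replicate 2, 3 or 4 or Cre- 4M replicate 1, 2 or 4 was left out, with adjusted p of 0.062 to 0.097. Its Cre- values were close to the array's floor, where array folds tend to be understated.

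H2-DMa, the alpha chain of DM, read 5.13, 5.19, 4.999 and 5.01 in Cre- and 5.37, 5.46, 5.77 and 5.77 in Cre+ kidneys of 4 months. The 7-month values were 5.23, 5.12 and 5.29 in Cre- and 6.37, 6.32, 6.67 and 6.13 in Cre+ kidneys. The groups did not overlap at either age. H2-DMa rose 1.42-fold at 4 months (log2 change 0.51, SE 0.12, limma adjusted p = 0.026) and 2.23-fold at 7 months (1.16, SE 0.13, adjusted p = 7e-06). The 4-month call was lost without Cre- 4M replicate 1, 3 or 4 or without Cre+ 4M replicate 3 or 4 (adjusted p of 0.06 to 0.096).

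H2-DMb1, the other DM beta chain, was near the floor of the array. It ranged from 3.51 to 3.76 in Cre- and from 3.45 to 4.11 in Cre+ kidneys of 4 months. At 7 months it read 3.79, 3.70 and 3.69 in Cre- and 4.29, 3.84, 4.24 and 4.33 in Cre+ kidneys. The 7-month groups were apart by the narrow gap between 3.79 and 3.84. The 4-month change of H2-DMb1 was 0.19 (SE 0.14, limma adjusted p = 0.56), and the 7-month rise was 0.45 (SE 0.15, adjusted p = 0.042). That call was lost without any of the 3 Cre- arrays or without Cre+ 7M replicate 1, 3 or 4 (limma adjusted p of 0.067 to 0.11) and with the replicate number as a block (0.089). In all it was lost in 11 of 18 alternatives. H2-DMb1 and H2-DMb2 are close paralogs, and how well the probes of the array separate their transcripts was not tested, so the split between the pair is uncertain.

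The DO chains did not pass the test at either age. H2-Oa, the alpha chain, ranged from 3.48 to 4.11, 3.68 to 3.91, 3.91 to 4.18 and 4.07 to 4.31 in Cre- 4M, Cre+ 4M, Cre- 7M and Cre+ 7M. Its log2 change was -0.07 (SE 0.13, limma adjusted p = 0.85) at 4 months and 0.22 (SE 0.14, adjusted p = 0.29) at 7 months. H2-Ob, the beta chain, ranged from 4.78 to 4.93, 4.87 to 5.18, 4.75 to 5.01 and 5.03 to 5.39 in the same order. The 7-month groups of H2-Ob did not overlap, with only a narrow gap between 5.01 and 5.03, and its change was 0.12 (SE 0.10, limma adjusted p = 0.64) and then 0.29 (SE 0.11, adjusted p = 0.072). With the replicate number as a block the 7-month change of H2-Ob was 0.30 (limma adjusted p = 0.046). Same-numbered Cre- and Cre+ arrays of 7 months had deviations from their group means correlated at only -0.28 to 0.22. The block therefore has no known basis for this comparison, and H2-Ob is not counted as called. The 95% intervals at 7 months reached 0.50 for H2-Oa and 0.53 for H2-Ob, below the lower ends for the 3 classical chains, H2-DMa and H2-DMb2. The values of H2-Oa lay near the floor, where array folds tend to be understated, so its interval does not bound the change in RNA.

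Ciita, the transactivator of these genes, read 5.67, 5.76, 5.88 and 5.39 in Cre- and 5.43, 6.22, 5.83 and 5.51 in Cre+ kidneys of 4 months. At 7 months it read 5.39, 5.45 and 5.62 in Cre- and 6.37, 5.69, 6.29 and 6.31 in Cre+ kidneys. The groups overlapped at 4 months and were apart at 7 months, with Cre+ 7M replicate 2 close to the Cre- range. The change was 0.07 (SE 0.18, limma adjusted p = 0.89) at 4 months, and its 95% interval of -0.30 to 0.44 contains 0. Ciita rose 1.60-fold at 7 months (log2 change 0.68, SE 0.19, limma adjusted p = 0.015). Without Cre- 7M replicate 1 or 2 the limma adjusted p was 0.055 and 0.052. In all, the 7-month call of Ciita was lost in 4 of 19 alternatives, these among them, and its change ran from 0.49 to 0.91.

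**Figure D2:**
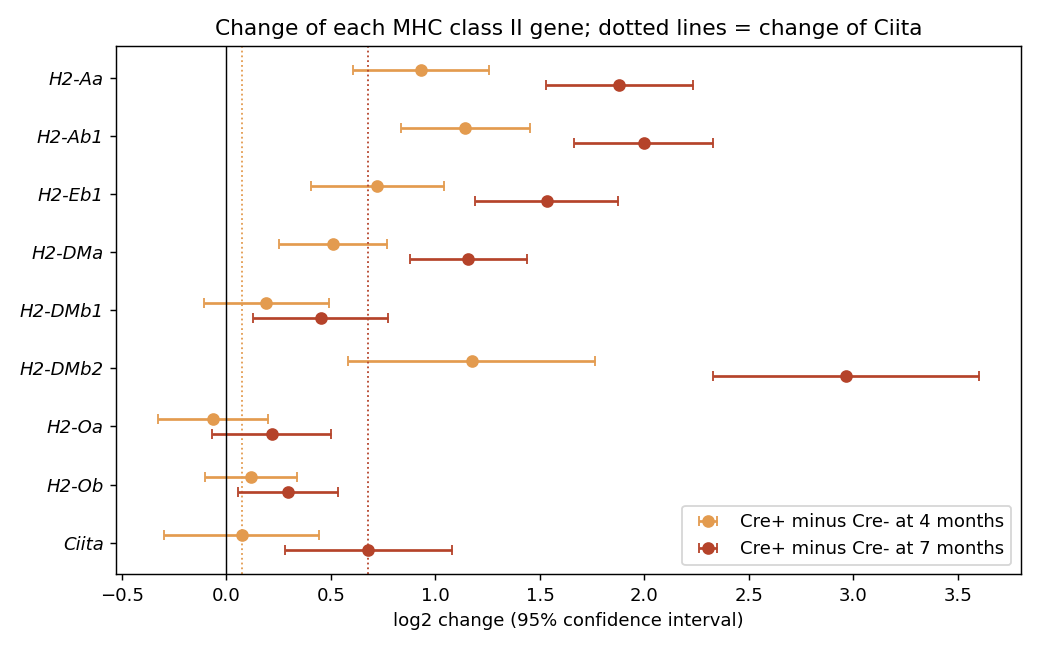
Log2 change, Cre+ minus Cre-, of each member at 4 and 7 months (horizontal axis) with 95% confidence intervals from the limma fit; the dotted lines mark the change of Ciita at each age. At 7 months the intervals of H2-Aa, H2-Ab1, H2-Eb1 and H2-DMb2 lie above the 1.08 at which the interval of Ciita ends.

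To set each change beside that of Ciita, the log2 value of Ciita was subtracted from that of each other member within each array. The classical chains and H2-DMb2 had larger changes than Ciita. At 4 months H2-Aa exceeded the change of Ciita by 0.86, H2-Ab1 by 1.07 and H2-DMb2 by 1.10 (exact two-sided permutation p = 0.0286 each, the smallest that 4 against 4 arrays allow), and 3 of 8 members had no overlap between groups. Only 1.13% of the other 22179 genes exceeded Ciita without overlap at that age. The excess was 0.65 for H2-Eb1 (exact permutation p = 0.0571) and 0.44 for H2-DMa (p = 0.114). It was 0.12 for H2-DMb1, 0.05 for H2-Ob and -0.14 for H2-Oa (exact permutation p of 0.571 to 0.857).

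At 7 months the excess over Ciita was 1.20 for H2-Aa, 1.32 for H2-Ab1, 0.85 for H2-Eb1 and 2.29 for H2-DMb2, the last a 4.88-fold difference (exact two-sided permutation p = 0.0286 each, again the smallest possible). These 4 of 8 members had no overlap, beside 1.93% of all genes that exceeded Ciita in this way. H2-DMa exceeded Ciita by 0.48 (exact permutation p = 0.143). For H2-DMb1, H2-Oa and H2-Ob the difference from Ciita was -0.23, -0.46 and -0.38, none past the threshold (exact permutation p of 0.0857 to 0.229). Cre+ 7M replicate 2, the array lowest in Ciita, set these overlaps: without it, 4 members lay above Ciita's change and H2-DMb1, H2-Oa and H2-Ob lay below it without overlap. Without Cre+ 4M replicate 2, the array highest in Ciita at that age, 5 of 8 members exceeded Ciita without overlap at 4 months. Both arrays were picked for their Ciita values, so leaving them out shifts the change of Ciita by construction. These counts are a description, and no share over all genes is given for them. Probe sets differ in how intensity follows RNA amount, and what part of these excesses that makes was not tested.

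**Figure D3:**
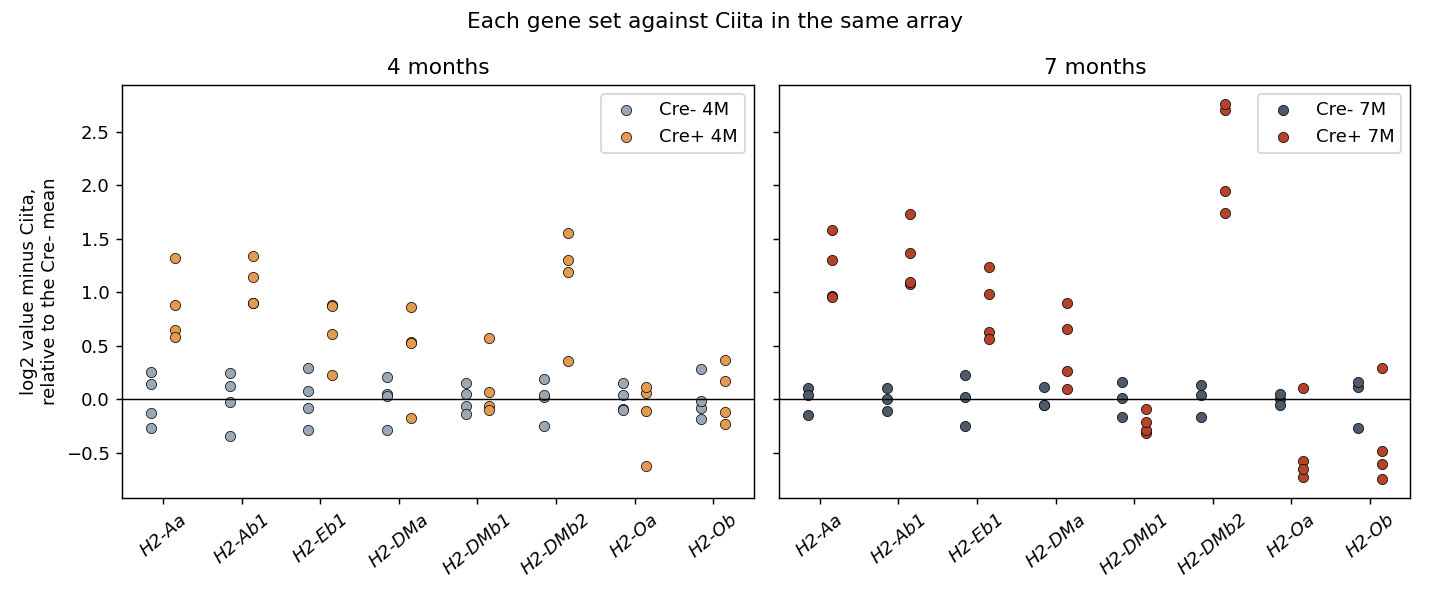
Log2 value of each member minus that of Ciita in the same array (vertical axis, set to 0 at the Cre- mean of that age); each point is 1 array, in Cre- and Cre+ groups at 4 months (left) and 7 months (right). At 7 months all 4 Cre+ arrays lie above all Cre- arrays for H2-Aa, H2-Ab1, H2-Eb1 and H2-DMb2.

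The Cre effect itself was larger at 7 than at 4 months for 3 of 9 members, where 0.96% of all genes showed a called increase. The difference of the log2 changes was 0.95 for H2-Aa (SE 0.23, limma adjusted p = 0.038), 0.85 for H2-Ab1 (SE 0.21, adjusted p = 0.048) and 1.79 for H2-DMb2 (SE 0.41, adjusted p = 0.032). For H2-Eb1 it was 0.81 (limma adjusted p = 0.071), for H2-DMa 0.65 (0.075) and for Ciita 0.60 (SE 0.26, adjusted p = 0.26). These calls were close to the threshold: leaving out 1 array gave between 0 and 3 called members, and 0 remained without Cre- 4M replicate 2 or 3, Cre- 7M replicate 1 or 2, or Cre+ 7M replicate 2 or 3. Their adjusted p values then ran from 0.051 to 0.11 for H2-Aa, H2-Ab1 and H2-DMb2.

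In Cre- kidneys no member passed the limma test between the ages (0 of 9 also at an unadjusted p under 0.05 and by the plain linear model), where 1 gene of 22180, or 0.00451%, was called. In Cre+ kidneys 6 of 9 members were higher at 7 than at 4 months, where 4.12% of all genes rose. H2-Aa rose by 0.71, H2-Ab1 by 0.76, H2-Eb1 by 0.75, H2-DMa by 0.78 and H2-DMb2 by 1.62 (limma adjusted p of 0.00059 to 0.0071). H2-Oa rose by 0.42 (limma adjusted p = 0.041), with the 4 arrays of 7 months above those of 4 months, a call that was lost when any Cre+ array but 7M replicate 3 was left out (0.051 to 0.10). Ciita, at 0.41 (SE 0.18, limma adjusted p = 0.15), did not pass, and the call appeared without Cre+ 4M replicate 2 (0.043) or Cre+ 7M replicate 2 (0.046). In the order of group means, the classical chains, H2-DMa and H2-DMb2 ran from the Cre- groups, which did not differ beyond their spread, to Cre+ 4M and then Cre+ 7M. These comparisons share arrays with the Cre comparisons.

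Around the members on chromosome 17, RefSeq places 16 genes from H2-Oa to H2-Ea, of which 15 were measured. Of these, 6 rose at 4 months and 11 at 7 months, and none fell at 7 months, where 2.73% and 11.7% of all genes rose. Both counts include H2-Aa, H2-Ab1, H2-Eb1, H2-DMa and H2-DMb2, and the 11 also H2-DMb1, all counted above as members. The genes between the DM and DO loci serve class I presentation: at 7 months Tap1 rose by 1.23 (SE 0.14), Psmb8 by 1.13 (SE 0.14), Tap2 by 0.66 (SE 0.13) and Psmb9 by 0.62 (SE 0.17), with limma adjusted p of 5.7e-06 to 0.011. Brd2, a bromodomain gene between H2-Oa and H2-DMa, changed by 0.11 (limma adjusted p = 0.56). H2-Oa, Brd2, H2-Ob and H2-Ea did not pass at either age.

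**Figure D4:**
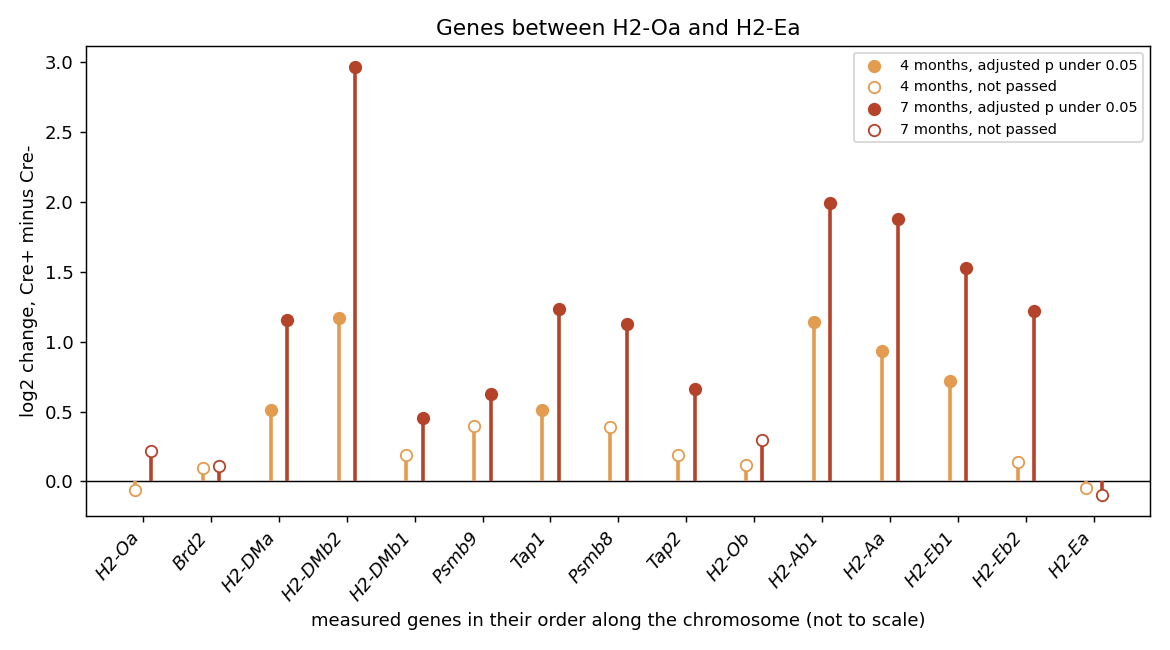
Log2 change, Cre+ minus Cre- (vertical axis), at 4 and 7 months for the 15 measured genes from H2-Oa to H2-Ea in their order along the chromosome, not to scale; filled points passed an adjusted p of 0.05. H2-Oa, Brd2, H2-Ob and H2-Ea have open points at both ages.

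Of 14 genes for factors that act on class II promoters, 0 passed the limma test at 4 months (0 at an unadjusted p under 0.05, 0 by the plain linear model) and 4 rose at 7 months, with medians of 0.05 and 0.09. Over all genes, 2.73% rose at 4 months and 11.7% at 7 months. Irf4 rose by 0.87, Irf8 by 0.71 and Spi1, the myeloid and B cell factor PU.1, by 0.61 (limma adjusted p of 0.0034 to 0.011). The call of Irf8 was lost in 3 of 19 alternatives, among them without Cre- 7M replicate 1 (limma adjusted p = 0.063). That of Irf4 was lost in 1 of 18, that of Spi1 in 1 of 19 and that of Rfx5 at 7 months in 2 of 19. Rfx5, the DNA-binding subunit of RFX, rose by 0.52 at 7 months (SE 0.13, limma adjusted p = 0.0075) after -0.01 at 4 months. Rfxap, Rfxank, Nfya, Nfyb, Nfyc and Creb1 had 7-month changes between -0.13 and 0.10 with adjusted p of 0.51 to 0.84.

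A list of 12 endosomal genes held 6 proteases (Ctss, Ctsl, Ctsb, Ctsd, Lgmn and Sppl2a), Ifi30, the protease inhibitor Cst3 and the tetraspanins Cd63, Cd82, Cd37 and Cd9. Of these, 5 rose at 4 months and 10 at 7 months (medians 0.45 and 0.80), where 2.73% and 11.7% of all genes rose. Cst3 and the tetraspanins, which do not cleave the invariant chain themselves, made up 2 of the 5 and 5 of the 10. Ifi30, a thiol reductase of endosomes that unfolds antigens, ranged from 7.72 to 8.26 in Cre- and from 9.82 to 9.92 in Cre+ kidneys of 4 months and rose by 1.87 and 2.31 at the 2 ages (limma adjusted p = 4.1e-09 and 6.1e-10). Ctss, cathepsin S, which trims the invariant chain in antigen-presenting cells, had a 4-month change of 0.63 (limma adjusted p = 0.13) and a 7-month rise of 2.51 (SE 0.23, adjusted p = 8e-07). Ctsl, cathepsin L, which does so in thymic epithelium, rose by 0.96 and 1.65 (limma adjusted p = 7.3e-05 and 1.2e-07). Lgmn, an asparaginyl endopeptidase, changed by -0.13 and -0.11 (adjusted p = 0.61 and 0.56). Of 4 genes that govern class II turnover at the cell surface 0 passed the limma test at either age (0 and 0 at an unadjusted p under 0.05, 0 and 0 by the plain linear model), with Cd83 at 0.23 and the ubiquitin ligase Marchf8 at -0.12 at 7 months.

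Among 15 genes of the interferon gamma axis, 2 rose at 4 months and 10 at 7 months (medians 0.32 and 0.67). By the same test 2.73% of all genes rose at 4 months and 11.7% at 7 months. Ifng itself lay at 3.67 to 4.24 in all arrays, near the floor, with changes of 0.15 and 0.09 (limma adjusted p = 0.62 and 0.71). Cxcl9, a chemokine induced by interferon gamma, rose by 0.91 and 1.27, the receptor chain Ifngr1 by 1.21 at 7 months, and the GTPase Gbp3 by 1.32 at 7 months (limma adjusted p of 1.8e-05 to 0.039). The 4-month call of Cxcl9 was lost in 11 of 20 alternatives (adjusted p up to 0.23), among them leaving out any Cre- 4M array or Cre+ 4M replicate 2 or 4. The 7-month call of Gbp3 was lost in 9 of 19 (adjusted p up to 0.27), among them leaving out Cre- 7M replicate 2 or 3 or Cre+ 7M replicate 1, 3 or 4. Without Cre+ 4M replicate 1, whose mean over this list (6.15) lay within the Cre- range of 6.13 to 6.19, 6 of 15 rose at 4 months. Over all 22180 genes, 904 rose at 4 months without that array and 606 with it. Class I presentation genes numbered 3 rising of 19 at 4 months (6 without that array) and 12 rising and 1 falling at 7 months (medians 0.19 and 0.58). H2-K1, a classical class I heavy chain, rose by 0.61 and 1.58, B2m, its light chain, by 0.67 and 1.12, and H2-Q4 by 1.23 at 7 months, while Psme2 fell by 0.37 (limma adjusted p of 7.1e-07 to 0.02). The 4-month call of H2-K1 was lost in 5 of 20 alternatives, among them without Cre- 4M replicate 1 or Cre+ 4M replicate 3. That of Psme2 at 7 months was lost in 5 of 19, among them without Cre- 7M replicate 3 or Cre+ 7M replicate 3 or 4. Leaving out these single arrays gave limma adjusted p of 0.053 to 0.06. Nlrc5, the class I counterpart of Ciita, had a 4-month change of 0.26 (adjusted p = 0.44) and a 7-month rise of 1.21 (SE 0.16, limma adjusted p = 3.9e-05).

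Markers of cells that make class II constitutively were measured in the same arrays. Of 19 macrophage markers 6 rose at 4 months and 15 at 7 months, where 2.73% and 11.7% of all genes rose. Without Cre+ 4M replicate 1, 9 of them rose at 4 months, and 904 of all 22180 genes rose in place of 606. The median changes of the macrophage markers were 0.52 and 1.25. Their mean log2 value ranged from 5.33 to 5.83 in Cre- and 5.83 to 6.15 in Cre+ arrays of 4 months, and from 5.43 to 5.73 and 6.55 to 6.83 at 7 months. At 7 months Lyz2 rose by 2.21, Adgre1 by 1.93 and C1qb by 1.75 (limma adjusted p of 3.2e-06 to 2.6e-05). Of 12 B cell markers 0 rose at 4 months by limma (3 at an unadjusted p under 0.05, 0 by the plain linear model) and 8 at 7 months (medians 0.08 and 0.63), among them Ms4a1 by 1.56, Cd79a by 1.33 and Bank1 by 1.30 (limma adjusted p of 2.2e-05 to 0.00019). The mean over the B cell list was 4.16 to 4.20 and 4.13 to 4.42 at 4 months, and 4.09 to 4.16 and 4.42 to 5.07 at 7 months. Ms4a1, which encodes CD20, was near the floor, at 3.21 to 3.96, in the other 3 groups and at 4.25 to 5.53 in Cre+ kidneys of 7 months.

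Of 15 dendritic cell markers 1 rose at 4 months (2 without Cre+ 4M replicate 1), and 4 rose and 1 fell at 7 months (medians 0.16 at both ages). Among all genes, 2.73% rose at 4 months, and 11.7% rose and 10.8% fell at 7 months. Without that array, 904 of 22180 genes rose at 4 months in place of 606. Itgax (CD11c) rose by 1.50, Flt3 by 0.87 and Ccr7 by 0.68, whereas Kmo, which tubule cells also express, fell by 1.17 (limma adjusted p of 1.5e-06 to 0.0029). The mean over the dendritic cell list was 4.86 to 5.05 and 4.93 to 5.23 at 4 months, and 4.92 to 5.002 and 5.13 to 5.20 at 7 months, and Xcr1 stayed near the floor at 3.54 to 4.29 in all arrays. Of 15 kidney markers 2 fell at 4 months and 10 at 7 months (medians -0.17 and -0.72), where 0.803% and 10.8% of all genes fell, and none rose. At 7 months the proximal tubule transporter genes Slc5a2 and Slc34a1 and the endocytic receptor gene Lrp2 fell by 2.12, 1.34 and 0.94 (limma adjusted p of 5.6e-08 to 7.2e-05). The part of the macrophage, B cell, dendritic cell and kidney markers in the change of the class II genes was not tested.

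**Figure D5:**
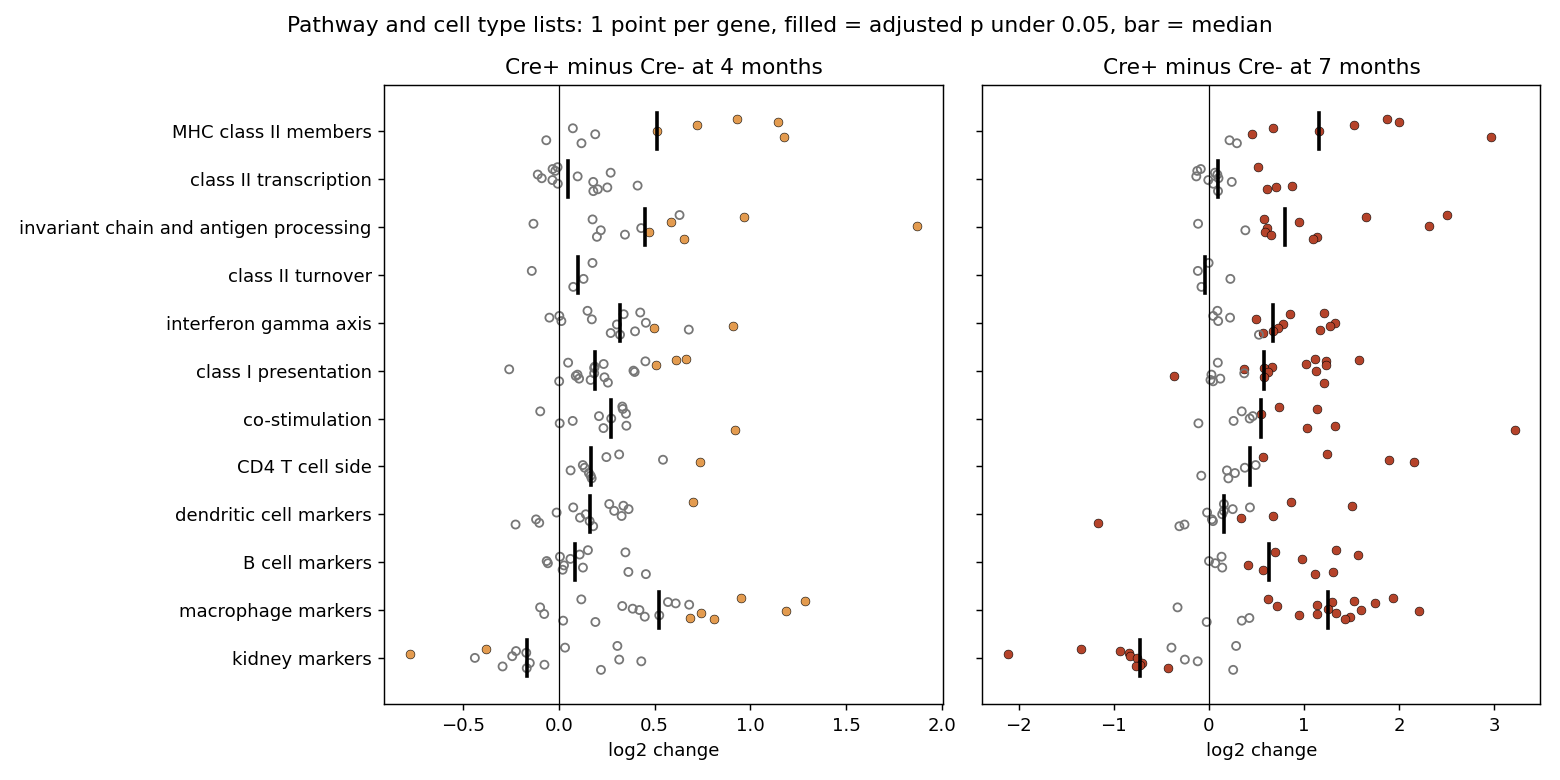
Log2 change, Cre+ minus Cre- (horizontal axis), at 4 months (left) and 7 months (right) for the measured genes of each list; each point is 1 gene, filled where the adjusted p was under 0.05, and the black bar is the list's median. Class II transcription and turnover have medians near 0 at both ages, while the class II members and macrophage markers have medians of 1.16 and 1.25 at 7 months.

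The members differed among arrays of one group as well, and how often each array was lowest or highest over all genes was not counted. Cre- 4M replicate 2 was the highest of its group for 6 of 9 class II genes and for 14 of 19 macrophage markers. Cre- 7M replicate 1 was the lowest of its group for 5 of 9 class II genes and 12 of 19 macrophage markers. Cre- 7M replicate 3 was the highest for 5 of 9 and 12 of 19 of them. Cre+ 7M replicate 3 was the highest for 5 of 9 class II genes and the lowest for 9 of 19 macrophage markers. Cre+ 7M replicate 1 was the lowest of its group for 10 of 12 B cell markers and for 2 of 9 class II genes.

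Likeness to the mean profile of H2-Aa, H2-Ab1 and H2-Eb1 was measured as the root mean square difference in log2 over the 15 arrays, after centring each profile on its own mean. Among non-members the nearest were Dock11 (0.16), Ctsl (0.17), Cd109 (0.18), Kit (0.19), Cldn1 (0.19), Itgb2 (0.19), Fzd6 (0.19), Frk (0.20), Mrc1 (0.20) and Tnfrsf1b (0.20). The integrin chain Itgb2 and the mannose receptor Mrc1 are leukocyte or macrophage genes, and the tight-junction gene Cldn1 is epithelial. By the same measure H2-DMa lay at 0.31, Ciita at 0.55 and H2-DMb2 at 0.56 from that mean. Among genes with a range of at least 1 log2 unit, those nearest to Ciita were Mctp1 (0.18), Ankrd34c (0.20), Igtp (0.20), Tcirg1 (0.20) and Parvg (0.20). Igtp, an interferon-induced GTPase and one of the interferon gamma axis list, had log2 changes of 0.40 at 4 months and 0.67 at 7 months. These distances are descriptions over arrays that share their groups and carry no test.

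When arrays with high and with low Y-linked values were fitted apart, 2 members, H2-Aa and H2-Ab1, were called at 4 months in each set (limma). H2-Aa changed by 0.86 and 0.999 and H2-Ab1 by 1.13 and 1.15 at 4 months in the high and the low set. At 7 months H2-Aa changed by 1.69 and 2.19 and H2-DMb2 by 2.73 and 3.23, and Ciita by 0.49 and 0.91. The high set holds 2 Cre+ and 2 Cre- arrays of that age and the low set 2 and 1, so that the lone Cre- array of the low set is assumed to vary like the other groups.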

How the data were processed

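Total RNA of kidneys from 15 mice was hybridised to Affymetrix Mouse Gene 2.0 ST arrays from 100 ng RNA each (RNA integrity above 7, per the labels' protocols). The deposited log2 intensities were made by robust multi-array averaging in Partek 6.6, per the submitters' processing notes and series text. The labels name no genome build. Arrays have no read depth, and their number limits the precision. Of 41345 entries, 23521 carried 1 gene symbol, 1814 several and 16010 none, and 23328 matched RefSeq by Entrez gene identifier while 193 kept the platform's symbol. This gave 22180 genes, 1082 of them with several entries. No detection calls were used.

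limma 3.58.1 (R 4.3.3) fitted 4 group means, and p-values were adjusted by Benjamini-Hochberg over all genes with a threshold of 0.05. Changes are Cre+ minus Cre- on the log2 scale. Differences from Ciita were tested by exact permutation. The members and lists were chosen with earlier results of these data known. All members were named; of other lists, up to 3 rising and 3 falling members by size at 7 months, or at most 2 where none passed, plus H2-Ea, Ifng, Rfx5, Nlrc5 and B2m. Subunits of RFX, NF-Y and CREB, Lgmn, Xcr1 and the neighbours of the members were added after their values were seen. Likeness was planned with Cd74, whose entry has 2 symbols, and used 3 genes. The test was checked on simulated data. Same-numbered Cre+ arrays of 4 and 7 months had deviations from their group means correlated at 0.17 to 0.30 in 4 of 4 pairs. Each of these pairs also shared its class of Y-linked values, high or low, so number and class cannot be told apart there. With that number as a block, also within these groups alone, 6 members were called between the ages, as without it. The p-values measure the spread between mice of a group. Alternatives were another normalization, a filter on dim genes, other variance models, array weights, a block, a Y-linked covariate, means over entries and leaving out arrays; splits by Y-linked values were added after seeing the data.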

Additional observations from a re-analysis of the deposited data

Results flagged for a closer look

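An array lay far from the other three of its group in 12 of 189 groups of 4 arrays tested over 63 named genes, by Dixon's criterion; chance alone marks about 1 group in 20. Cre+ 4M replicate 1 was low in 5 of these: H2-Aa at 8.52 beside 9.16 to 9.27, Rfx5 at 6.40 beside 6.88 to 6.91, Cd3g at 4.48 beside 5.16 to 5.21, Ms4a1 at 3.46 beside 3.94 to 3.96 and Cd109 at 4.06 beside 4.56 to 4.61. In Cre+ 7M, H2-Ab1 was high in replicate 3 (11.57 beside 11.32 to 11.36), H2-Ea was low there (2.79 beside 3.09 to 3.15) and Ciita was low in replicate 2 (5.69 beside 6.29 to 6.37). Lyz2 was low in Cre+ 4M replicate 2 (8.04 beside 8.33 to 8.37). In Cre- 4M, Nlrc5 was low in replicate 4 (4.55 beside 4.68 to 4.70), H2-K1 was low in replicate 1 (8.20 beside 8.34 to 8.37) and C1qb was high in replicate 2 (7.56 beside 6.63 to 6.78).

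The Cre effect differed between the ages by the limma test of the difference for 25 named genes, of which Dock11, Cldn1 and Tnfrsf1b were named for their likeness to the classical chains. Among class II genes the 7-month effect minus the 4-month effect was 0.95 for H2-Aa, 0.85 for H2-Ab1, 1.79 for H2-DMb2 and 1.08 for H2-Eb2. It was 1.88 for Ctss and 0.68 for Ctsl in antigen processing, and 0.95 for Nlrc5 and 0.96 for H2-K1 in class I presentation. Among co-stimulatory genes it was 2.30 for Vcam1, 0.97 for Cd48 and 0.80 for Cd86, and among T cell genes 1.42 for Cd3g, 1.35 for Cd3e and 0.93 for Cd4. Among markers of antigen-presenting cells it was 1.17 for Itgax, 1.45 for Ms4a1, 1.18 for Cd79a, 0.94 for Bank1 and 1.14 for C1qb. It was 0.87 for Dock11, 1.15 for Cldn1 and 1.06 for Tnfrsf1b, values that follow from how these 3 genes were chosen and are a description only. It was negative for Kmo (-1.07), Slc5a2 (-1.34) and Slc34a1 (-0.96). Of the other 22 genes, H2-Aa, H2-Ab1, H2-DMb2 and Nlrc5 were named whatever their values, with limma adjusted p of 0.032 to 0.048. The rest were named for the size of their 7-month change, which is part of this difference, so their values are a description only. Over all 22180 genes, 213 were called higher and 262 lower by the same test.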

How the results depend on the processing

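Among alternatives, no member and no other named gene had a called change that turned direction. The call of H2-Aa and H2-Ab1 against Cre- held at both ages under every alternative run, with 4-month changes of 0.84 to 1.11 and 1.04 to 1.31. Of 5 members called at 4 months, 3 remained in number under a plain linear model without moderation, 2 in the arrays of high and 2 in those of low Y-linked values, and 3 to 5 when 1 array was left out. H2-DMa and H2-DMb2 were the ones lost under the plain model (adjusted p = 0.055 and 0.11). Of 7 called at 7 months, 5 to 7 remained in number when 1 array was left out. The 3 called differences between the ages became 5 with the filter on dim genes, 5 with quantile normalization and 5 with arrays centred on their medians, and 0 under the plain linear model, 0 in the arrays with high and 0 in those with low Y-linked values, and 0 to 3 when 1 array was left out. Of 6 members higher at 7 months among Cre+ kidneys, 2 were called in the arrays of low Y-linked values and 5 to 6 when 1 array was left out; between the ages of Cre- kidneys 0 were called throughout. Members that exceeded or fell short of Ciita without overlap numbered 3 to 5 at 4 months and 4 to 7 at 7 months when 1 array was left out. The causes of these shifts were not tested, apart from the fewer arrays or genes that some alternatives hold by construction.

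With the replicate number as a block, called members were 5 at 4 months, 7 at 7 months, 3 for the difference, 0 between the ages in Cre- and 6 in Cre+; H2-DMb1 and H2-Ob exchanged their calls at 7 months, no other member's call changed, and 3 and 5 members stood apart from Ciita without overlap. Outside the Cre+ pairs, same-numbered arrays had deviations correlated at 0.19 to 0.22 where both were of the same Y-linked class. Where the classes differed the correlations were -0.47 to -0.06. There the number is only a number, and whether it is more than that in the Cre+ pairs, which share their class, was not tested. The filter on dim genes removed H2-DMb1 and H2-Oa, whose values lie near the floor, and groups of 3 or 4 arrays limit the precision of every change.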

Other observations

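Genes by which antigen-presenting cells co-stimulate T cells, and genes of the CD4+ T cells that read class II, were measured in the same arrays. Of 11 co-stimulatory genes 1 rose at 4 months and 6 at 7 months, with median changes of 0.27 and 0.55 and none falling. Over all genes, 2.73% rose at 4 months and 11.7% at 7 months. Vcam1, an adhesion molecule for leukocytes, rose 1.89-fold at 4 months (log2 change 0.92, limma adjusted p = 0.016, a call lost in 7 of 20 alternatives with adjusted p up to 0.11, among them without Cre- 4M replicate 3 or Cre+ 4M replicate 2 or 3) and 9.33-fold at 7 months (3.22, SE 0.22, adjusted p = 2.8e-08). Cd48 rose by 1.32 and Cd86, the B7-2 ligand of CD28, by 1.14 at 7 months (limma adjusted p = 2.2e-05 and 2.6e-05). Of 10 genes of the CD4+ T cell side 1 rose at 4 months (2 without Cre+ 4M replicate 1) and 4 at 7 months, with medians of 0.17 and 0.43. Without that array, 904 of 22180 genes rose at 4 months in place of 606. At 7 months the T cell receptor subunits Cd3g and Cd3e rose by 2.16 and 1.89, and Cd4, the coreceptor that binds class II, ranged from 5.25 to 6.04 in Cre+ and 4.25 to 4.53 in Cre- arrays and rose by 1.24 (SE 0.15, limma adjusted p = 1.5e-05). Macrophages also transcribe Vcam1 and Cd86, and the source of these transcripts was not tested.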
